A study of Saccharomyces cerevisiae with 4 samples.

Results

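Transcript levels of 33 genes of the 26S proteasome system were compared between *sis2Δ* and wild-type yeast. They are the 32 genes for subunits of the proteasome and *RPN4*, the gene of the transcription factor that activates them. The members were chosen by their systematic identifiers from a count table of 6692 genes. All 33 passed the minimum of 0.5 CPM (counts per 1000000 counts of the library, with library sizes scaled by TMM) in at least 2 libraries, as did 5959 genes in all, which were tested. The small lid subunit gene *SEM1* is not among the 33 and is given with the partner genes.

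In the mutant strain, *sis2Δ*, *SIS2* is replaced by a KanMX cassette, and the strain was taken from the *MATa* Knockout Collection. The wild type was BY4741, a haploid laboratory strain. Both strains share the genotype *MATa his3Δ1 leu2Δ0 met15Δ0 ura3Δ0*. *SIS2* encodes a subunit of an enzyme of coenzyme A synthesis that also inhibits the phosphatase Ppz1. Each strain gave 2 libraries, A and B, of polyadenylated RNA from separate cultures in mid-log growth in synthetic complete medium with 2% glucose. The mutant is 1 strain of a collection, so an effect of the deletion and an effect of any other change carried by that strain cannot be told apart. In bulk RNA, fewer cells with a transcript and less of it per cell cannot be told apart either.

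The 26S proteasome degrades proteins that carry ubiquitin chains. Its 20S core is a barrel of stacked rings: the outer alpha rings gate the entry, and the inner beta rings hold the proteolytic sites. The 19S regulatory particle caps the barrel, with a base that contains the ATPase ring Rpt1 to Rpt6 and a lid that contains the deubiquitinase Rpn11. In budding yeast, Rpn4 binds a promoter element called PACE (proteasome-associated control element) before most subunit genes. Rpn4 is itself a short-lived substrate of the proteasome, which forms a feedback loop. *RPN4* transcription is known to be activated by Hsf1, Pdr1, Pdr3 and Yap1. Proteasome abundance has been linked to the replicative lifespan of yeast.

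The counts on genes summed to between 19158777 and 25399379 in the *sis2Δ* libraries and between 19001619 and 28069619 in the wild-type libraries. *SIS2* (YKR072C) had 6 and 9 counts in *sis2Δ*, against 3991 and 2208 in the wild type. The libraries A and B differed more in *sis2Δ* than in the wild type, where the chi-square of A against B, divided by its degrees of freedom, was 60.3 in *sis2Δ* and 20.4 in the wild type. For 1 gene at a time, 2 libraries against 2 allow an exact permutation test (two-sided) no p smaller than 1 in 3. Unless another test or setting is named, adjusted p values below therefore come from edgeR's quasi-likelihood test, which shares the estimate of the spread across genes. They carry Benjamini-Hochberg adjustment over the 5959 genes. A gene is called when its adjusted p is under 0.05. By this rule 6.07% of the tested genes were called in either direction, 3.36% as lower and 2.72% as higher in *sis2Δ*. All fold changes are *sis2Δ* over wild type, on the log2 scale, and all levels are TMM-scaled CPM unless given per length.

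The promoters are shown first because the shared Rpn4 element is what links the subunit genes to *RPN4*. Windows of 300 bases, from 250 before to 50 after the first base of each start codon, were read from the RefSeq R64 genome. The element searched for was GGTGGCAAA, on both strands. It was found in 27 of the 32 subunit windows (84.4%) and in 72 of 6001 windows of all coding genes (1.2%). The shorter core GGTGGC was in 29 subunit windows (90.6%) and in 6.93% of all windows. The following stretches carry the element of members whose levels are given per library below, the last pair only its core. Each is written 5′ to 3′ on the strand of the gene with the match in capitals, and TTTGCCACC and GCCACC are the same letters read on the opposite strand.
SCL1, chrVII:475337-475365, minus strand: cacacaccaaTTTGCCACCgtaaggatag
PRE6, chrXV:255218-255246, plus strand: cgaagattctTTTGCCACCggaagggaaa
PRE3, chrX:435035-435063, plus strand: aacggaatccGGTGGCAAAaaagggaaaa
PRE2, chrXVI:732184-732212, plus strand: acagcaaaagGGTGGCAAAacgaagaata
RPN2, chrIX:220801-220829, minus strand: atttattttcGGTGGCAAAactggataca
RPN5, chrIV:190776-190804, plus strand: ttgacttttcGGTGGCAAAatgcaaaggg
RPN12, chrVI:252398-252426, plus strand: ctacacattaTTTGCCACCcattgaaatt
RPN10, chrVIII:498971-498996, plus strand: gcgggttttcGCCACCggaatttaca
RPN13, chrXII:965659-965684, minus strand: ttattcgcgaGGTGGCgaaagctttg

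Over the 27 subunit genes with the whole element, its place was upstream of the start codon. It lay closest to the start codon before *RPT6*, from 84 to 76 bases upstream, and farthest before *PUP3*, from 183 to 175 bases upstream. Each of the 27 windows held it once, most often on the strand of the gene. The 5 subunit genes with no match to the whole element were *PRE5*, *PUP1*, *RPN8*, *RPN10* and *RPN13*, and the *RPN4* window held neither the element nor its core. A match of letters is a description and does not show that Rpn4 was bound there.

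The promoter of *RPN4* was searched for the sites of its own activators, in the 500 bases before the start codon. The Hsf1 element, written as TTC, GAA and TTC spaced by 2 bases, matched at 2 places and occurs in 1.48% of all windows of this length. The Yap1 element TTACTAA matched at 1 place and occurs in 11.8% of such windows. These matches are shown because the levels of *HSF1* and *YAP1* are given with that of *RPN4* below.
RPN4, Hsf1 element 348 to 336 bases upstream, chrIV:417036-417064, minus strand: agtgatggTTCTAGAAAGTTCcgtttcgg
RPN4, Hsf1 element 21 to 9 bases upstream, chrIV:416709-416737, minus strand: caaaagttTTCTAGAATTTTCaagcaatc
RPN4, Yap1 element 374 to 368 bases upstream, chrIV:417068-417090, minus strand: gatcgctaTTACTAAtagccgtt
The letters TCCGCGGA, a form of the site of Pdr1 and Pdr3, were not in this window, and 0.65% of all windows hold them. Other forms of that site were not searched for, so its absence is not shown. No subunit window held the spaced Hsf1 element in either length.

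*RPN4* (YDL020C, chromosome IV from 415113 to 416708, minus strand) was the 1 member that was higher in *sis2Δ*, and its adjusted p was just above the threshold. Its level was 207.8 and 172.3 CPM in *sis2Δ* libraries A and B, against 145.5 and 137.7 CPM in the wild type. The strains did not overlap, with *sis2Δ* above the wild type and library A of *sis2Δ* the highest of the 4. Of all tested genes, 24.5% were separated in this direction. The means were 190 ± 25.1 CPM in *sis2Δ* and 142 ± 5.50 CPM in the wild type (SD, n = 2 each). The log2 fold change was 0.42 (standard error, SE, 0.12, 95% interval 0.17 to 0.68), a level 34.1% higher, and edgeR's quasi-likelihood test gave it an adjusted p of 0.0513. By its p, *RPN4* was in place 366 of the tested genes, of which the first 362 were called. Of all tested genes, 6.01% had a log2 fold change at or above that of *RPN4*.

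The size of the *RPN4* difference kept its direction in every way of processing that was run, while its side of the threshold did not stay. It was called with library size alone as the scaling (0.49, adjusted p = 0.0415), with RLE scaling (0.44, adjusted p = 0.0313) and in DESeq2 (0.44, adjusted p = 0.0234). It was not called in limma-voom (0.42, adjusted p = 0.0544), with no filter on low counts or with the stricter filter. The value rested in part on *sis2Δ* library A. Without that library it was 0.29 (adjusted p = 0.195), and without *sis2Δ* library B it was 0.55 (adjusted p = 0.00792), a setting in which 16.6% of all tested genes were called.

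**Figure D1:**
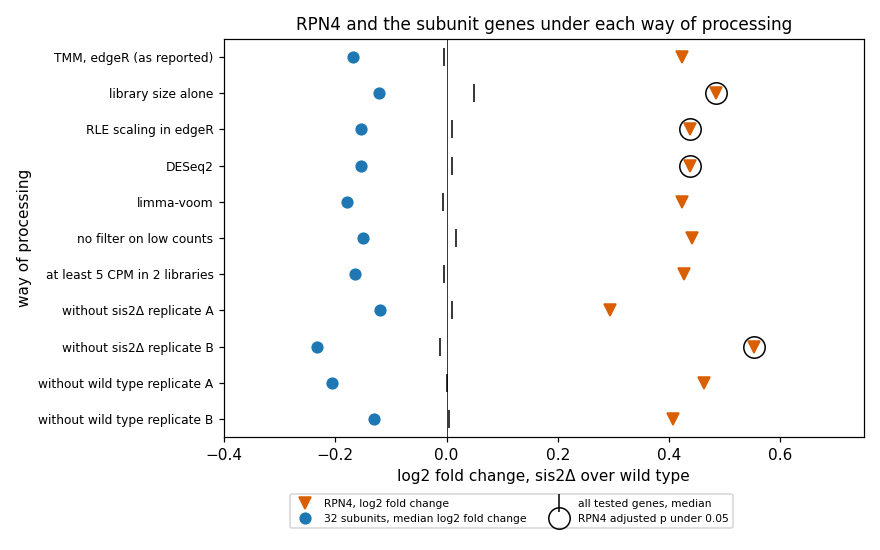
Log2 fold change of *RPN4* (triangles), median over the 32 subunit genes (filled circles) and median over all tested genes (vertical ticks), *sis2Δ* over wild type, as reported and under 10 of the 11 alternatives, 1 per line, with the replicate block not drawn. *RPN4* lies between 0.29 and 0.55 and the subunit median between −0.23 and −0.12 on every line drawn, and an open ring marks the 4 of these lines on which *RPN4* had an adjusted p under 0.05.

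None of the 32 subunit genes was called in either direction. Their log2 fold changes were all below 0, between −0.34 (*RPN12*) and −0.01 (*RPN10*), although with library size alone as the scaling 28 of the 32 stayed below 0, with RLE scaling, DESeq2 or no filter 31 did, and with 1 library left out between 28 and 31 did. Of all tested genes, 51.0% had a log2 fold change below 0. The median over the subunit genes was −0.17, beside a median of −0.005 over all tested genes. Adjusted p values ran from 0.0887 to 0.985, and 26 of the 32 intervals of 95% included 0. These intervals together reached from −0.65 to 0.28 on the log2 scale, that is from −36.5% to 21.3%.

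Before adjustment over all genes, edgeR's quasi-likelihood test gave 6 of the 32 subunit genes a p under 0.05, all with lower levels in *sis2Δ*, where 10.4% of all tested genes did so. They were *SCL1*, *PRE5*, *PRE10*, *PUP3*, *PRE7* and *RPN12*. In DESeq2 0 subunit genes were called and 4 had an unadjusted p under 0.05, and in limma-voom 0 were called and 6 had an unadjusted p under 0.05. The 6 unadjusted p values became 2 without *sis2Δ* library A, 15 without *sis2Δ* library B, 2 without wild-type library A and 0 without wild-type library B. Without *sis2Δ* library B, 5 subunit genes were also called after adjustment, namely *RPN12*, *SCL1*, *RPN2*, *PRE3* and *PRE8*, in a setting that called 16.6% of all tested genes. The libraries of the strains were separated for 26 of the 32 subunit genes, all with both *sis2Δ* libraries below both wild-type libraries, and 28.6% of all tested genes were separated in that direction. For the other 6, *PRE8*, *PUP1*, *PRE2*, *RPN10*, *RPN13* and *RPN5*, the libraries of the strains overlapped. The subunit genes share the 4 libraries and are not independent of each other, so these counts are descriptions and carry no test.

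**Figure D2:**
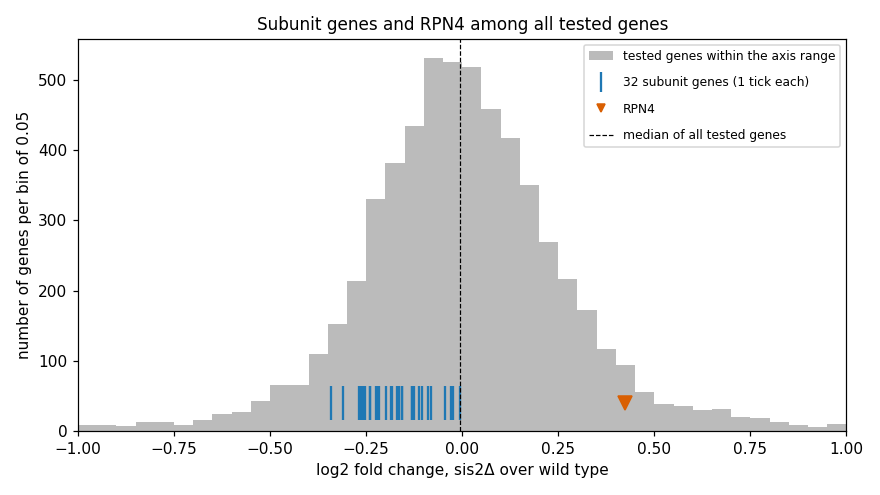
Histogram of the log2 fold change, *sis2Δ* over wild type, of the tested genes between −1 and 1 (vertical axis, genes per bin of 0.05). Ticks mark the 32 subunit genes, which lie between −0.34 and −0.01, left of or close to the median of all genes (dashed line, −0.005), and the triangle marks *RPN4* at 0.42. The range of the subunit genes also holds 41.4% of all tested genes.

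The summed level of the 32 subunit genes gives the same picture in each library. It was 9956 and 10510 CPM in *sis2Δ* libraries A and B, against 11290 and 11810 CPM in the wild type. On this TMM scale both *sis2Δ* sums lay below both wild-type sums, and the gap between the strains was wider than that within either. The width of these gaps depends on the TMM factors. These were 1.073 and 0.966 for *sis2Δ* A and B, and 0.97 and 0.994 for wild type A and B. With library size alone as the scaling, the median log2 fold change of the subunit genes was −0.12 instead of −0.17. The means were 10230 ± 393 CPM in *sis2Δ* and 11550 ± 367 CPM in the wild type (SD, n = 2 each), a change of −11.4%. The sum over all tested genes changed by −3.45% on the same scale. It was 931700 and 1035000 CPM in *sis2Δ* A and B, against 1031000 and 1006000 CPM in wild type A and B. Set against the wild-type mean of each gene, the median deviation of the subunit genes on the log2 scale was −0.23 in *sis2Δ* A and −0.13 in *sis2Δ* B, against −0.03 in wild type A and 0.03 in wild type B. The subunit genes also differed between the libraries of 1 strain: library A was below library B for 25 of the 32 genes in *sis2Δ* and for 29 in the wild type. Without *sis2Δ* A the subunit median was −0.12, and without *sis2Δ* B it was −0.23.

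**Figure D3:**
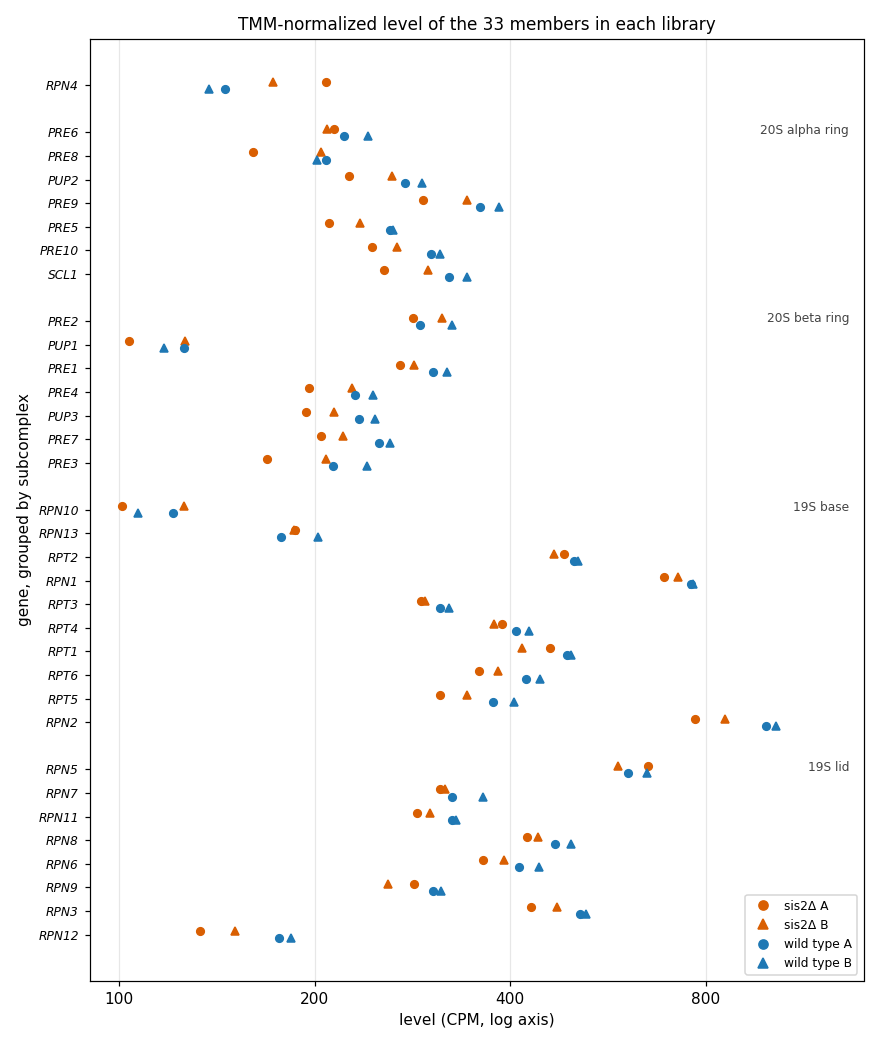
Level of each of the 33 genes in CPM (horizontal log axis) in each library, with *sis2Δ* in orange and wild type in blue, library A as circles and library B as triangles, grouped by subcomplex. Both *sis2Δ* points of *RPN4* lie to the right of both wild-type points, and those of 26 subunit genes lie to the left. Of all tested genes, 24.5% were separated to the right and 28.6% to the left.

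The alpha ring of the core, which gates the barrel, had 7 genes with a median log2 fold change of −0.22, which was −0.13 without *sis2Δ* library A and −0.33 without *sis2Δ* library B. None was called, 3 had an unadjusted p under 0.05 and 6 had separated libraries, all with *sis2Δ* lower. Of all tested genes, 10.4% had such a p with *sis2Δ* lower and 28.6% were separated in that direction. The largest difference in the ring was that of *SCL1* (YGL011C), an alpha-ring subunit gene, with 255.9 and 298.7 CPM in *sis2Δ* and 321.6 and 343.7 CPM in the wild type. Both *sis2Δ* values of *SCL1* were below both wild-type values. Its log2 fold change was −0.26 (SE 0.12, adjusted p = 0.238 in edgeR's quasi-likelihood test). *PRE10* (YOR362C), with 245.2 and 268.1 CPM in *sis2Δ* and 301.7 and 312.1 CPM in the wild type, was at −0.26 (adjusted p = 0.211). *PRE5* (YMR314W), with 210.1 and 234.5 CPM in *sis2Δ* and 261.1 and 263.9 CPM in the wild type, was at −0.24 (adjusted p = 0.238). *PRE5* is one of the genes with no PACE match in its window.

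The other alpha-ring genes were closer to 0. *PRE9* (YGR135W), whose product is the core subunit that yeast can live without, was at −0.22 (adjusted p = 0.329), *PUP2* (YGR253C) at −0.22 (adjusted p = 0.315) and *PRE8* (YML092C) at −0.17 (adjusted p = 0.470). *PRE8* is the alpha-ring gene whose strains overlapped, since its *sis2Δ* libraries had 160.8 and 204.3 CPM, against 208.0 and 201.7 CPM in the wild type. The smallest difference of the ring was that of *PRE6* (YOL038W), at 213.9 and 209.0 CPM in *sis2Δ* against 221.7 and 241.3 CPM in the wild type. All 4 libraries of *PRE6* were close together, and its log2 fold change was −0.13 (adjusted p = 0.515). In 6 of the 7 alpha-ring genes library A of *sis2Δ* was below library B, with a median log2 ratio of A to B of −0.22 in *sis2Δ*, −0.09 in the wild type and −0.01 over all tested genes in *sis2Δ*. That gap between the *sis2Δ* libraries was thus as large as the median difference between the strains in this ring.

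The beta ring holds the 3 proteolytic subunits, and none of their genes was called. *PRE3* (YJL001W) encodes the subunit with caspase-like activity, and is also the 1 member with an intron. It had 168.7 and 208.5 CPM in *sis2Δ* and 213.3 and 241.0 CPM in the wild type, with both *sis2Δ* libraries lower, and a log2 fold change of −0.27 (SE 0.13, adjusted p = 0.244). *PUP1* (YOR157C), for the subunit with trypsin-like activity, had 103.4 and 126.1 CPM in *sis2Δ* and 125.8 and 117.0 CPM in the wild type, at −0.08 (adjusted p = 0.732). *PRE2* (YPR103W), for the subunit with chymotrypsin-like activity, had 282.9 and 313.7 CPM in *sis2Δ* and 290.2 and 324.9 CPM in the wild type, at −0.04 (adjusted p = 0.866). The strains overlapped for both *PUP1* and *PRE2*, and the sign of *PRE2* was positive with library size alone as the scaling.

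Of the beta subunit genes whose products are not proteolytic, *PRE7* (YBL041W) differed most. It had 204.7 and 221.4 CPM in *sis2Δ* and 251.3 and 261.1 CPM in the wild type. The spread within each strain was less than the gap between the strains, and the log2 fold change was −0.27 (SE 0.11, adjusted p = 0.183). *PUP3* (YER094C) was at −0.24 (adjusted p = 0.233), with 193.9 and 214.0 CPM in *sis2Δ* and 234.3 and 247.9 CPM in the wild type. *PRE1* (YER012W) and *PRE4* (YFR050C) were both at −0.17, with adjusted p values of 0.415 and 0.421. These 4 genes each had both *sis2Δ* libraries below both wild-type libraries. The median over the 7 beta-ring genes was −0.17, with none called and 5 separated with *sis2Δ* lower, beside 28.6% of all tested genes. The beta-ring median was −0.11 without *sis2Δ* library A, −0.28 without *sis2Δ* library B and −0.11 without wild-type library B.

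Within the base of the 19S particle, the 6 ATPase genes were close to each other. These ATPases form the ring that unfolds substrates and feeds them into the core. *RPT5* (YOR117W) was at −0.25 (adjusted p = 0.249), *RPT6* (YGL048C) at −0.23 (adjusted p = 0.307) and *RPT1* (YKL145W) at −0.17 (adjusted p = 0.481). *RPT4* (YOR259C) was at −0.13 (adjusted p = 0.576), *RPT3* (YDR394W) at −0.11 (adjusted p = 0.599) and *RPT2* (YDL007W) at −0.09 (adjusted p = 0.729). Their *sis2Δ* levels lay between 294 CPM for *RPT3* and 475 CPM for *RPT2*, against 317 and 505 CPM in the wild type. The libraries of the strains were separated for all 6 with *sis2Δ* lower, as for 28.6% of all tested genes. None of the 6 was called or had an unadjusted p under 0.05. Between the libraries of *sis2Δ* the ATPase genes went both ways, with A below B for 3 of the 6 and log2 ratios of A to B between −0.14 (*RPT5*) and 0.14 (*RPT1*).

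The base also contains the large scaffold subunits and the ubiquitin receptors. *RPN2* (YIL075C), a scaffold gene and the most abundant member in CPM, had 771.4 and 855.4 CPM in *sis2Δ*, against 990.6 and 1028 CPM in the wild type. The highest *sis2Δ* library of *RPN2* was below the lowest wild-type library, and the log2 fold change was −0.31 (SE 0.16, 95% interval −0.65 to 0.03, adjusted p = 0.284). *RPN1* (YHR027C), the other scaffold gene, was at −0.11 (adjusted p = 0.717), with 708 CPM in *sis2Δ* and 761 CPM in the wild type. The receptor genes were among the members closest to 0. *RPN10* (YHR200W) had 101.1 and 126.0 CPM in *sis2Δ* and 121.0 and 107.0 CPM in the wild type, at −0.01 (SE 0.12, 95% interval −0.27 to 0.26, adjusted p = 0.985). *RPN13* (YLR421C) had 186.2 and 186.1 CPM in *sis2Δ* and 177.7 and 202.1 CPM in the wild type, at −0.03 (adjusted p = 0.906). The strains overlapped for both receptors, and with library size alone as the scaling both signs were positive. Over the 10 base genes the median was −0.12, with none called and 8 separated with *sis2Δ* lower, beside 28.6% of all tested genes. The median was −0.08 without wild-type library B and −0.06 with library size alone as the scaling.

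In the lid, *RPN12* (YFR052W, chromosome VI from 252505 to 253329, plus strand) had the largest difference of all 32 subunit genes. Rpn12 is the subunit that joins the lid last during its assembly. The gene had 133.2 and 151.0 CPM in *sis2Δ*, against 176.3 and 183.8 CPM in the wild type. The strains were clearly separated, with means of 142 ± 12.6 CPM in *sis2Δ* and 180 ± 5.30 CPM in the wild type (SD, n = 2 each). The log2 fold change was −0.34 (SE 0.11, 95% interval −0.58 to −0.11), a change of −21.1%, and its adjusted p of 0.0887 in edgeR's quasi-likelihood test did not pass the threshold. Without *sis2Δ* library B, *RPN12* was at −0.43 and passed the threshold (adjusted p = 0.0235), and without *sis2Δ* library A it was at −0.24 (adjusted p = 0.308).

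The remaining lid genes had smaller values, all from the same fit. *RPN3* (YER021W) was at −0.20 (adjusted p = 0.395), *RPN9* (YDR427W) at −0.19 (adjusted p = 0.370) and *RPN6* (YDL097C), whose product holds lid, base and core together, at −0.18 (adjusted p = 0.416). *RPN11* (YFR004W), the deubiquitinase that cuts ubiquitin chains off substrates, and *RPN8* (YOR261C), its catalytically inactive partner, were both at −0.16, with adjusted p values of 0.446 and 0.495. *RPN7* (YPR108W) was at −0.13 (adjusted p = 0.554). These 6 genes each had separated libraries, with *sis2Δ* lower, as did 28.6% of all tested genes. *RPN5* (YDL147W) had 651.1 and 585.7 CPM in *sis2Δ*, against 606.9 and 650.8 CPM in the wild type, at −0.02 (SE 0.14, adjusted p = 0.941). Its strains overlapped fully, the highest and the lowest library both being of *sis2Δ*, and its sign was positive with library size alone as the scaling. The 8 lid genes had a median of −0.17, and the whole 19S particle of 18 genes had a median of −0.16, against −0.22 for the 14 genes of the 20S core.

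**Figure D4:**
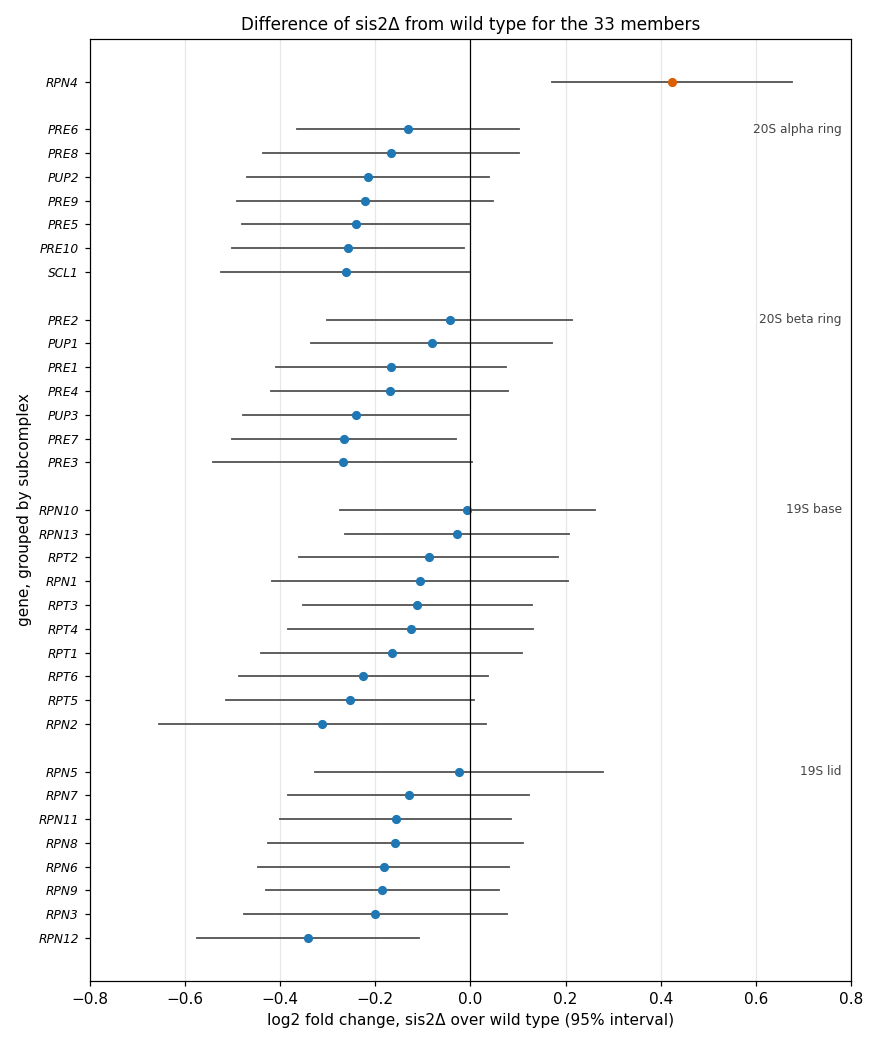
Log2 fold change of each of the 33 genes, *sis2Δ* over wild type (points), with its 95% interval (lines), grouped by subcomplex. The intervals of *RPN4* and of the 6 subunit genes with an unadjusted p under 0.05 do not include 0, and those of the other 26 do. The interval of *RPN12*, the lowest point, runs from −0.58 to −0.11.

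To compare levels between genes, the mean CPM of each was divided by its coding length in kilobases. Subunits of the proteasome are needed in nearly equal numbers, and on this scale the 32 genes lay within a 3.30-fold range in *sis2Δ* and a 3.69-fold range in the wild type. In *sis2Δ* they had between 141 and 465 CPM per kb with a median of 293, and in the wild type between 141 and 522 with a median of 352. The median over all tested genes with a coding length was far lower, at 57.2 CPM per kb in *sis2Δ* and 57.8 in the wild type. *PRE1* was the highest subunit gene in both strains, with 465 CPM per kb in *sis2Δ* and 522 in the wild type. *RPN5* (462 in *sis2Δ* and 470 in the wild type), *RPN8* (426 in *sis2Δ* and 475 in the wild type) and *PRE9* (410 in *sis2Δ* and 478 in the wild type) followed it in CPM per kb. *RPN10* was the lowest in both strains, with 141 CPM per kb in each, before *PUP1* with 146 in *sis2Δ* and 154 in the wild type and *RPN12* with 172 in *sis2Δ* and 218 in the wild type. *RPN4*, which encodes a regulator and not a subunit, was below every subunit gene, at 119 CPM per kb in *sis2Δ* and 88.7 in the wild type. Coding length leaves out untranslated regions, so these levels per length are approximate.

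**Figure D5:**
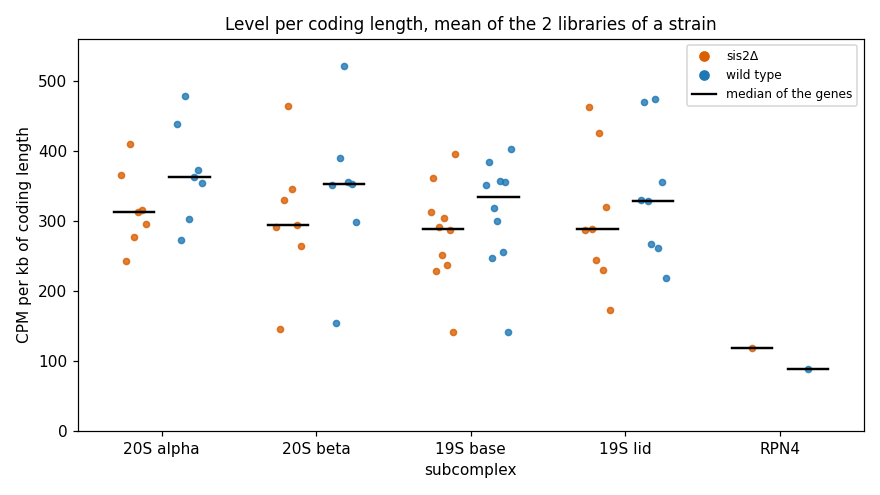
Level per coding length (CPM per kb, mean of the 2 libraries of a strain) of each gene by subcomplex, *sis2Δ* left in orange and wild type right in blue, with the median of each group as a bar. The medians of the 4 subcomplexes lie between 288 and 312 CPM per kb in *sis2Δ* and between 329 and 363 in the wild type, and *RPN4* lies lower, at 119 in *sis2Δ* and 88.7 in the wild type.

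The split of the subunit genes by the promoter element was then compared with their levels. The 27 genes with the whole PACE element had a median log2 fold change of −0.18, with 24 separated. The 5 genes without it, *PRE5*, *PUP1*, *RPN8*, *RPN10* and *RPN13*, had a median of −0.08, with 2 separated. All these separated genes were lower in *sis2Δ*, as were 28.6% of all tested genes. The 5 ran from −0.24 (*PRE5*) to −0.01 (*RPN10*) and the 27 from −0.34 to −0.02, so the ranges overlapped. A difference between the 5 and the 27 was not tested. No gene of either kind was called. Beyond the 33 members, 44 tested genes held the element in their window, and they had a median of −0.01, with 23 of the 44 below 0. Of the 44, 17 were separated with *sis2Δ* lower and 9 with *sis2Δ* higher, beside 28.6% and 24.5% of all tested genes. Of the 44, *MPO1* (YGL010W), the gene of a dioxygenase of sphingolipid breakdown, was the 1 that was called. It fell in *sis2Δ*, with 17.7 and 17.6 CPM in *sis2Δ* against 26.2 and 28.6 CPM in the wild type and a log2 fold change of −0.63 (SE 0.13, adjusted p = 0.0125), although without wild-type library B its adjusted p was 0.107. *MPO1* lies next to *SCL1* on the opposite strand, and was named after its values were seen. The search covered both strands, so such a neighbour of a subunit gene can hold the same site. The 44 also include *ECM29*, *UBA1*, *UBI4*, *CDC48* and *YAP1*, which belong to the lists of related genes below. They are therefore not a set unrelated to the proteasome.

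The genes of the regulators above *RPN4* were examined next. *PDR3* (YBL005W), a transcription factor of drug resistance and a known activator of *RPN4*, fell in *sis2Δ*. It had 57.5 and 53.5 CPM in *sis2Δ*, against 94.6 and 84.2 CPM in the wild type. The strains did not overlap, and the log2 fold change was −0.69 (SE 0.11, adjusted p = 0.00288), in the direction opposite to that of *RPN4*. The other 3 activator genes, named after their values were seen because their sites were searched for, were not called. *HSF1* (YGL073W), the heat shock factor, was at 0.32 (adjusted p = 0.244), with 164.5 and 125.5 CPM in *sis2Δ* against 131.4 and 101.3 CPM in the wild type, and its strains overlapped. The value moved with single libraries, being 0.12 without *sis2Δ* library A (adjusted p = 0.752), 0.50 without *sis2Δ* library B (adjusted p = 0.0383), 0.52 without wild-type library A (adjusted p = 0.0383) and 0.16 without wild-type library B (adjusted p = 0.851). *PDR1* (YGL013C), the partner of *PDR3*, was at −0.25 (adjusted p = 0.205) and *YAP1* (YML007W), the oxidative stress factor, at −0.22 (adjusted p = 0.303).

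The genes for the degradation of Rpn4 protein gave 0 calls of 3 in edgeR's quasi-likelihood test, DESeq2 and limma-voom, and none had an unadjusted p under 0.05 in any of them. *UBR2* (YLR024C), the ubiquitin ligase of Rpn4, had 85.5 and 80.3 CPM in *sis2Δ* and 91.6 and 83.4 CPM in the wild type, at −0.08 (adjusted p = 0.717). *MUB1* (YMR100W), the partner of this ligase, had 90.8 and 80.6 CPM in *sis2Δ* and 86.3 and 88.0 CPM in the wild type, at −0.03 (adjusted p = 0.918), with a positive sign when library size alone was the scaling. *RAD6* (YGL058W), the ubiquitin-conjugating enzyme of this pathway, was at 0.14 (adjusted p = 0.484). The strains overlapped for *UBR2* and *MUB1*. Levels of Rpn4 protein were not measured here.

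Of 9 genes for assembly chaperones of the proteasome, edgeR's quasi-likelihood test called 0 and gave 1 an unadjusted p under 0.05. That gene was *NAS6* (YGR232W), a chaperone of the base, with 34.24 and 45.03 CPM in *sis2Δ* against 50.81 and 53.57 CPM in the wild type and a log2 fold change of −0.39 (SE 0.14, adjusted p = 0.114). *NAS6* was at −0.20 without *sis2Δ* library A (adjusted p = 0.481) and passed without *sis2Δ* library B (−0.61, adjusted p = 0.0120). *POC4* (YPL144W), a chaperone of the alpha ring, was at −0.28 (adjusted p = 0.420) with overlapping strains. *UMP1* (YBR173C), the chaperone that matures the core, was at 0.05 (adjusted p = 0.830), with 136.7 and 114.9 CPM in *sis2Δ* and 118.2 and 124.6 CPM in the wild type. The 9 chaperone genes had a median of −0.05, and 7 of them were below 0, or 4 with library size alone as the scaling, where the median was 0.0002. With 1 library left out the median was lowest without wild-type library A (−0.19), followed by −0.12 without *sis2Δ* library B, −0.04 without *sis2Δ* library A and −0.03 without wild-type library B. DESeq2 and limma-voom also called 0 of them.

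Of 5 further partner genes, edgeR's quasi-likelihood test called 0 and gave 1 an unadjusted p under 0.05, as did DESeq2 and limma-voom. *ECM29* (YHL030W), whose product tethers the core to the 19S particle, had 101.7 and 116.5 CPM in *sis2Δ*, against 147.9 and 133.0 CPM in the wild type. The *sis2Δ* libraries were both lower, and the log2 fold change was −0.36 (SE 0.11, adjusted p = 0.0796). *ECM29* was at −0.26 without *sis2Δ* library A (adjusted p = 0.311) and −0.29 without wild-type library A (adjusted p = 0.356), and passed without *sis2Δ* library B (−0.47, adjusted p = 0.0235). *SEM1* (YDR363W-A), the small lid subunit, was at 0.24 (SE 0.16, adjusted p = 0.411), but its libraries were 220.3 and 144.8 CPM in *sis2Δ*, against 144.8 and 163.3 CPM in the wild type. The positive value of *SEM1* thus rested on *sis2Δ* library A, and without that library it was −0.08, while without *sis2Δ* library B it was 0.52 (adjusted p = 0.0135).

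Upstream of the proteasome, 1 of the 11 genes for ubiquitin, its activation and the delivery of substrates was called. *UBC5* (YDR059C), a ubiquitin-conjugating enzyme of stress conditions, fell in *sis2Δ*. It had 16.3 and 18.9 CPM in *sis2Δ* against 27.0 and 30.0 CPM in the wild type, with a log2 fold change of −0.69 (SE 0.13, adjusted p = 0.0105). The call was lost without *sis2Δ* library A (−0.58, adjusted p = 0.0642) and without wild-type library B (−0.60, adjusted p = 0.0588). The coding sequences of *UBC5* and its near copy *UBC4* share no stretch longer than 14 bases, well below the read length of 100 bases. The 11 genes had a median of −0.06, which was 0.01 without *sis2Δ* library B, −0.13 without *sis2Δ* library A, −0.04 without wild-type library A and −0.0043 with library size alone as the scaling. The 5 genes of the Cdc48 complex, which extracts ubiquitinated proteins for the proteasome, gave 0 calls in edgeR's quasi-likelihood test, DESeq2 and limma-voom alike, and 0 unadjusted p values under 0.05. All 5 had values below 0, or 4 of them with library size alone, RLE scaling, DESeq2 or no filter. Among them, *SHP1* (YBL058W) was at −0.22 (adjusted p = 0.289) and *UFD1* (YGR048W) at −0.20 (adjusted p = 0.284).

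Reads shared between related members could in principle blur the values, since the 6 ATPase genes and the 14 core genes are each paralogs. The longest stretch shared by any pair of members was 18 bases, between *RPT4* and *RPT5*, which is shorter than the read length of 100 bases. No member is overlapped by another protein-coding gene on its own strand in the reference annotation, and all 33 symbols matched it. Overlap with other kinds of gene was not checked.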

How the data were processed

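Polyadenylated RNA of 2 *sis2Δ* and 2 wild-type BY4741 cultures was sequenced as stranded paired-end libraries. Per the methods and the deposited tables, the authors used Cutadapt 3.7 for trimming, RNA STAR 2.7.8a for mapping to R64 (sacCer3) and featureCounts 2.0.1 in reverse-stranded mode, and deposited the raw counts of 6692 genes. The annotation used and the treatment of reads mapping to several places are not given in the sources used here. A second deposited table holds the log2 fold changes and p-values of the authors' own limma-voom comparison and was not used.

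Groups were taken from the sample titles. In R 4.3.3, genes reaching 0.5 CPM in 2 or more libraries were kept, the libraries were scaled by TMM (factors from 0.966 to 1.073), and the strains were compared by edgeR 4.0.16 (glmQLFit and glmQLFTest, no covariate). p values were adjusted by Benjamini-Hochberg over all tested genes and called under 0.05, and intervals are 95% intervals of the fit. The depth puts 3 counts at 0.107 to 0.158 CPM, a floor for counting error alone, because PCR copies of a molecule are counted too. All 33 members are named. From each further list every called gene, or the leading pair by size where none was called, is named, together with *UBR2*, *MUB1*, *UMP1* and *SEM1*. The members and lists were chosen with earlier results of these data known, and 1 identifier of the ubiquitin list was corrected after the counts were seen. Alternatives were library size alone, RLE scaling, DESeq2 1.42.0, limma-voom (limma 3.58.1), no filter, at least 5 CPM in 2 libraries, the replicate letter as a block, and each library left out. Where 1 library of a strain remained, it was assumed to vary like those of the other strain. The edgeR fit was tested on simulated data, with a spread set by the trend over level and the same in both strains. The fit called 68.2% of the genes changed by 0.5 on the log2 scale and 100% of those changed by 1 or by 2. In the real data A and B differed more in *sis2Δ* than in the wild type, so these shares need not hold there. No change smaller than 0.5 was simulated, and every subunit difference was smaller than that. Coordinates, coding lengths and promoter letters came from RefSeq R64, the same build, and sequences are credited to it.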

Additional observations from a re-analysis of the deposited data

How the results depend on the processing

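*RPN4*, the subunit median and the calls were recomputed under 11 alternatives. Of the members, 0 were called as reported, against 1 (*RPN4*) with library size alone, RLE scaling or DESeq2, and between 0 and 6 with 1 library left out. The 6, without *sis2Δ* library B, were *RPN4*, *RPN12*, *SCL1*, *RPN2*, *PRE3* and *PRE8*. *RPN4* was at 0.49 with library size alone, 0.44 with RLE scaling and 0.44 in DESeq2, with adjusted p values of 0.0415, 0.0313 and 0.0234. It was at 0.42 in limma-voom (adjusted p = 0.0544), 0.44 with no filter (adjusted p = 0.0596) and 0.43 with the stricter filter (adjusted p = 0.0568), and between 0.29 and 0.55 with 1 library left out (adjusted p from 0.00792 to 0.239). The subunit median ran from −0.23 to −0.12 with 1 library left out, and over all settings it stayed below the median of all genes by 0.13 to 0.22.

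The replicate letter was also tried as a block. The deviations of A from B correlated at 0.0719 across genes between the strains, so the letters were not taken as pairs. With the replicate block, 2 members (*RPN4* at 0.42, adjusted p = 0.00453, and *RPN12* at −0.34, adjusted p = 0.0267) and 788 of all genes were called, against 362 without it, and *NAS6*, *ECM29* and *HSF1* passed. All genes called numbered between 190 and 985 with 1 library left out. With library size alone, 59.5% of 316 calls were higher in *sis2Δ*, against 44.8% with TMM.

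The sign changed for genes near 0. With library size alone *PRE2* was at 0.0057, *RPN10* at 0.0411, *RPN13* at 0.0244, *RPN5* at 0.0337 and *MUB1* at 0.0331, and *RPN10* was at 0.0078 with RLE scaling, 0.0078 in DESeq2 and 0.0108 with no filter. With 1 library left out, *PRE8* ran from −0.35 to 0.0079, *PUP1* from −0.23 to 0.0661, *PRE2* from −0.12 to 0.0603, *RPN10* from −0.17 to 0.16, *RPN13* from −0.12 to 0.0874 and *RPN5* from −0.0901 to 0.0512. Likewise *UMP1* ran from −0.0659 to 0.17, *SEM1* from −0.076 to 0.52 and *MUB1* from −0.10 to 0.0602. The number of subunit genes with an unadjusted p under 0.05, 6 as reported, ran from 0 without wild-type library B to 15 without *sis2Δ* library B. The cause of these shifts was not tested. Each strain had 2 libraries, and whether their spread or their depth limits what can be told apart was not tested.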

Other observations

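Because *PDR3* fell in *sis2Δ*, 9 drug resistance genes that are linked to Pdr1 and Pdr3 or to the related factor War1 were looked at, a choice made after the value of *PDR3* was seen. Of these, 5 were called as lower and 1 as higher in *sis2Δ*, beside 3.36% and 2.72% of all tested genes. *PDR5* (YOR153W), the main drug efflux pump of yeast, had 355 and 407 CPM in *sis2Δ*, against 1947 and 1667 CPM in the wild type, with a log2 fold change of −2.25 (SE 0.19, adjusted p = 1.38e-05 in edgeR's quasi-likelihood test). *PDR15* (YDR406W), a related pump, had 102.5 CPM in both *sis2Δ* libraries, against 370 and 292 CPM in the wild type (−1.69, adjusted p = 7.36e-06). The largest fall of the 9 was that of *RSB1* (YOR049C), a transporter of sphingoid long-chain bases, with 7.30 and 6.81 CPM in *sis2Δ* against 38.8 and 42.1 CPM in the wild type (−2.52, adjusted p = 3.90e-07).

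*SNQ2* (YDR011W), another multidrug pump, fell as well (−1.11, adjusted p = 0.000339). *PDR10* (YOR328W) was at −0.54 (adjusted p = 0.0179), a call that was lost without *sis2Δ* library A (adjusted p = 0.0979) and without wild-type library A (adjusted p = 0.0736). *PDR12* (YPL058C), the pump for weak organic acids that War1 controls, rose, with 101.4 and 124.8 CPM in *sis2Δ* against 78.7 and 71.0 CPM in the wild type (0.60, adjusted p = 0.0131). *YOR1*, *PDR11* and *PDR16* were at −0.31, −0.23 and −0.23 and were not called. The longest stretch shared by a pair among *PDR5*, *PDR10* and *PDR15* was 26 bases. Of these genes and *PDR3*, those that fell moved against the direction of *RPN4*, whose own difference did not pass the threshold. A link between their levels and that of *RPN4* was not tested.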
